A study of Mus musculus with 12 samples.

Results

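The serpins are a family of protease inhibitors and related proteins, and on this mouse array they were taken as every probe whose annotated gene symbol starts with Serpin. That rule gave 49 probes for 45 genes, out of 29922 probes and 16675 named genes in all, and all 45 genes were found by symbol in RefSeq. RNA labelled as muscle was measured on 12 arrays of BALB/c mice in 4 groups of 3 arrays. The groups were female normal mice given 2.5 nmol mcIRBP, an insulin receptor-binding protein, female normal mice given none (mock), male diabetic mice given 2.5 nmol mcIRBP, and male diabetic mice given none (mock). The labels do not say how diabetes was induced or whether the 3 arrays of a group came from separate mice, so p-values measure the spread between these arrays, which may be technical. Sex goes with disease state throughout, so the 2 cannot be told apart.

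An inhibitory serpin carries a reactive centre loop that a protease cuts; the loop then inserts into the body of the serpin and the protease is trapped in a covalent complex. Many clade A, C, D, F and G serpins are secreted plasma proteins, most of them made in liver, that hold coagulation, fibrinolysis, complement and inflammatory proteases in check. Clade B serpins lack a classical signal peptide and mostly act inside cells. Some members inhibit no protease: Serpina6 carries corticosteroids and Serpinh1 is a collagen chaperone of the endoplasmic reticulum.

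The tissue label was checked first. Of 15 measured skeletal muscle markers, only 1 was above the array floor on all 3 arrays of the normal mcIRBP group, 1 in the normal mock group, 2 in the diabetic mcIRBP group and 3 in the diabetic mock group. The muscle creatine kinase gene Ckm was above the floor on 2 of 3 normal mcIRBP arrays and on 2 of 3 normal mock arrays, and on no diabetic array. Liver markers, 16 measured, were above the floor on all 3 arrays for 2 in normal mcIRBP, 16 in normal mock, 1 in diabetic mcIRBP and 4 in diabetic mock. Epididymis markers, also 16 measured, gave 0 in normal mcIRBP, 0 in normal mock, 16 in diabetic mcIRBP and 13 in diabetic mock. Of 14 measured adipose tissue markers, 13 were above on all arrays of the normal mcIRBP group, 12 of the normal mock group, 8 of the diabetic mcIRBP group and 14 of the diabetic mock group. Liver markers were thus measured chiefly on the normal mock arrays, epididymis markers on the diabetic arrays and fat markers in every group, whereas most skeletal muscle markers were below the floor on 1 or more arrays of every group. In such bulk samples, fewer cells of a type and less RNA per cell cannot be told apart.

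**Figure D1:**
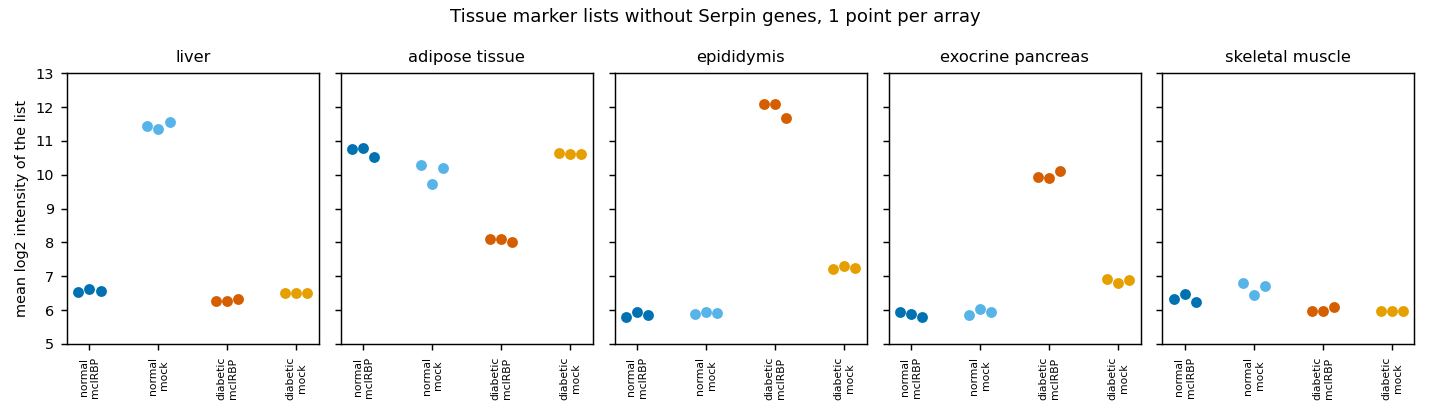
Mean log2 normalized intensity of 5 tissue marker lists, none of which holds a Serpin gene, with 1 point per array and the 4 groups along the horizontal axis. The liver list stands between 11.36 and 11.56 on normal mock arrays and at or below 6.62 on all others, and the epididymis list between 11.68 and 12.10 on diabetic mcIRBP arrays and at or below 7.30 on all others.

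A probe counted as above the floor on an array where its raw intensity exceeded the mode of that array by 5 SD of the values below the mode. Over the whole array 4731 to 8248 probes passed this on normal mcIRBP arrays, 2488 to 3824 on normal mock arrays, 4490 to 8080 on diabetic mcIRBP arrays and 10220 to 12451 on diabetic mock arrays. All levels below are log2 normalized intensities, which should not be compared between probes. Near the floor they do not compare plainly across arrays either. The lowest level of any probe above the floor ran from 5.98 (diabetic mock array 2) to 7.31 (normal mock array 3). The same level could thus be above the floor on some arrays and below it on others.

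Of the 49 Serpin probes, 18 were above the floor on all 3 arrays of at least 1 group, 5 on some arrays only and 26 on no array. The number above on all 3 arrays was 7 in the normal mcIRBP group, 11 in the normal mock group, 8 in the diabetic mcIRBP group and 14 in the diabetic mock group. Over all probes the corresponding shares were 13.7%, 6.96%, 14.6% and 31.7%. By clade letter, 10 of 17 Serpina probes and 2 of 22 Serpinb probes were above the floor on a full group. Serpinc1, Serpind1, Serpinf1, Serping1 and Serpinh1 were too, as was 1 of 2 Serpinf2 probes, while neither Serpini probe nor the Serpine2 probe was above the floor on any array.

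Sequences upstream of 4 members are shown here because Serpina1e and Serpinc1 had the largest fitted falls with mcIRBP in normal mice, and Serpina1f and Serpina3c the largest fitted rise and fall in diabetic mice, of all Serpin probes. They were read from RefSeq (GRCm38.p6). The genes and the motifs searched were chosen after the values were seen. Each is the 250 bases before an annotated transcription start, 5′ to 3′ on the strand of the gene. Serpina1e lies on the minus strand and its window is chr12:103956898-103957147. The Serpinc1 window, on the plus strand, is chr1:160978333-160978582. Serpina1f and Serpina3c, both on the minus strand, have windows chr12:103695530-103695779 and chr12:104153873-104154122. The Serpina3c gene span reaches chr12:104153929, so its window lies before a start inside that span and overlaps it. Capitals mark matches, on either strand, to a half-site of the liver-enriched factor HNF1, GTTAAT, or to a C/EBP site, TTGCNNAA, whose factors act in liver and fat.
Serpina1e: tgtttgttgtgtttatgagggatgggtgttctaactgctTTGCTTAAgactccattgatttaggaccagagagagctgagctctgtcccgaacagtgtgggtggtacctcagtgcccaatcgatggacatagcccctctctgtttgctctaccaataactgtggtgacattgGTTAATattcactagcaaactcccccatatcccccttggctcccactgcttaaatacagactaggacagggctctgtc
Serpinc1: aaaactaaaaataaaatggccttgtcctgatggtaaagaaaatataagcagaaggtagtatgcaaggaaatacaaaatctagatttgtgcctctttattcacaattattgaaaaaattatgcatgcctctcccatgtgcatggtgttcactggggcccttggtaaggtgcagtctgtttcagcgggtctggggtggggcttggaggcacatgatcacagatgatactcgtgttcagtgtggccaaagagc
Serpina1f: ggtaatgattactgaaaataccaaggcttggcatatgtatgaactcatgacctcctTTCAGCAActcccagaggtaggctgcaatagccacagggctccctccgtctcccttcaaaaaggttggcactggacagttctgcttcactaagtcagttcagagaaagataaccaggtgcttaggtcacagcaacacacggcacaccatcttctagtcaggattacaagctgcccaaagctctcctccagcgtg
Serpina3c: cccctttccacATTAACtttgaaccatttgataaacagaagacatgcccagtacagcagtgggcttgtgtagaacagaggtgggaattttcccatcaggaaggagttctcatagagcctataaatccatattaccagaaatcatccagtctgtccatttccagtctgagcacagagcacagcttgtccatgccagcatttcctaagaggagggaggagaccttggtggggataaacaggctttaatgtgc

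In the Serpina1e window the GTTAAT match lies 78 to 73 bases and the TTGCNNAA match 211 to 204 bases before the start, and no matches shown overlap. The Serpina1f window has a TTGCNNAA match on the opposite strand at 194 to 187 bases, and the Serpina3c window a GTTAAT match on the opposite strand at 239 to 234 bases. Neither motif's letters occur in the Serpinc1 window. GTTAAT was found in 7 of 45 windows of the 38 Serpin genes with a promoter in RefSeq, against 6.43% of 32851 promoters, and TTGCNNAA in 13 of 45, against 9.56%. Some genes have several windows, which can overlap and hold the same site, so the windows are not independent. A match of this kind describes letters in a window and not a bound site.

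The first question was what mcIRBP treatment changed in normal mice. Of the 49 Serpin probes, 8 were lower and 3 higher in normal mcIRBP than in normal mock arrays at an adjusted p under 0.05 (limma, Benjamini-Hochberg over all 29922 probes), which is 22.4% against 6.17% of all probes (2.71% lower and 3.46% higher). The median log2 fold change was -0.07 over Serpin probes and -0.0039 over all probes. The 8 lower probes belong to 7 genes, Serpina1e, Serpinc1, Serpina3k, Serpina6, Serpinf2, Serpind1 and Serpina10.

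Serpina1e (chr12:103946931-103956897, minus strand) is one of the near-identical mouse copies of alpha-1-antitrypsin, which inhibits neutrophil elastase, so its probe may also report other copies. Its levels were 6.33, 5.82 and 5.86 on the normal mcIRBP arrays, against 12.68, 12.63 and 12.36 on the normal mock arrays. The diabetic mcIRBP arrays had 5.96, 6.12 and 5.86 and the diabetic mock arrays 6.51, 6.31 and 6.43. The normal mock arrays stood far above all 9 others, and the groups of the normal mice did not overlap. The log2 fold change in normal mice was -6.56 ± 0.14 (SE), a fall (limma adjusted p = 9.63e-10), with 1 of 3 normal mcIRBP arrays above the floor. With the arrays below the floor set to the lowest level above it, or to their own level if higher, the fall was at least 71.3-fold.

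Serpinc1 (chr1:160978583-161002543, plus strand) encodes antithrombin, the heparin-dependent inhibitor of thrombin and factor Xa. Its levels were 5.99, 5.71 and 5.80 on the normal mcIRBP arrays and 11.98, 12.28 and 12.04 on the normal mock arrays. In diabetic mice they were 5.83, 5.79 and 5.80 with mcIRBP and 5.82, 5.85 and 5.86 in mock. Serpinc1 was thus above the floor in the normal mock group alone among the 4 groups. Where a group was below the floor on all its arrays, the fold is a bound, the mean of the bright group against, per array, the higher of the probe's own level and the lowest level of any probe above the floor. On that reckoning Serpinc1 was at least 52.3-fold lower with mcIRBP in normal mice (limma adjusted p = 4.55e-11).

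Serpina3k (chr12:104338486-104345739), a liver-secreted relative of antichymotrypsin known in rodents as contrapsin, kept a signal in several groups. Its levels were 7.65, 7.98 and 7.37 in normal mcIRBP and 12.23, 12.60 and 12.57 in normal mock arrays. Diabetic mcIRBP arrays had 6.37, 6.27 and 6.02 and diabetic mock arrays 9.42, 9.16 and 9.24. No 2 of the 4 groups overlapped, with normal mock highest and diabetic mcIRBP lowest. The log2 fold change was -4.81 ± 0.16 in normal mice, a 28.0-fold fall, and the sequence of its closest Serpina3 relatives is so alike that cross-hybridisation cannot be judged without probe sequences.

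Serpina6 (chr12:103646630-103657218) encodes corticosteroid-binding globulin, the plasma carrier of glucocorticoids. It measured 6.57, 6.44 and 6.24 in normal mcIRBP and 9.87, 9.99 and 9.88 in normal mock arrays. The values were 6.52, 6.97 and 6.85 in diabetic mcIRBP and 7.21, 6.52 and 7.16 in diabetic mock arrays. Normal mock arrays again stood apart, and Serpina6 fell by 3.49 ± 0.18 on the log2 scale in normal mice, with 2 of 3 normal mcIRBP arrays above the floor. By the reckoning used for Serpina1e this was at least 10.2-fold.

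Serpinf2 (chr11:75431736-75439501, minus strand) encodes alpha-2-antiplasmin, the main inhibitor of plasmin. Its first probe had 5.89, 6.16 and 5.83 in normal mcIRBP and 9.66, 9.01 and 9.14 in normal mock arrays. The same probe had 7.19, 7.23 and 7.29 in diabetic mcIRBP and 6.02, 6.11 and 6.14 in diabetic mock arrays. It was lower with mcIRBP in normal mice, at least 7.36-fold, and higher with mcIRBP in diabetic mice. The second Serpinf2 probe was at least 1.58-fold lower with mcIRBP in normal mice, but was above the floor on 1 of 3 normal mock arrays and on no other array, so it gave no reading in the diabetic mice.

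Serpind1 (chr16:17331371-17343574, plus strand) encodes heparin cofactor II, a second thrombin inhibitor. It measured 5.99, 5.77 and 5.80 in normal mcIRBP and 8.31, 8.01 and 8.15 in normal mock arrays, and 5.68 to 5.74 on the 6 diabetic arrays, none of which was above the floor. Serpina10 (chr12:103616675-103631490), the protein Z-dependent inhibitor of factor Xa, measured 5.85, 5.85 and 6.31 in normal mcIRBP and 8.24, 8.14 and 8.05 in normal mock arrays. Its diabetic values were 5.83, 6.05 and 5.74 with mcIRBP and 5.86, 5.93 and 5.83 in mock. Both genes were read above the floor on the normal mock arrays only. Serpind1 was at least 3.40-fold lower with mcIRBP in normal mice and Serpina10 at least 3.37-fold lower.

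The liver markers moved with these 7 genes. Of 16 measured, 15 were lower and 0 higher with mcIRBP in normal mice (median log2 fold change -5.20). The summed linear intensity of the 16 was 7887 to 9383 on normal mcIRBP arrays against 67055 to 73468 on normal mock arrays. Most of the normal mcIRBP sum came from Cyp2e1, the marker not called lower. It averaged 12.86 (log2) in normal mcIRBP and 12.17 in normal mock arrays, so the sums understate the fall of the other markers. Among the defining ones, Ttr, Fabp1 and Apoa2 were above the floor on no normal mcIRBP array, while Alb was above on all 3. Their part in the fall of these 7 genes was not tested.

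The 3 higher Serpin probes in normal mice were those of Serpinh1, Serpina3f and Serpinb6b. Serpinh1 (chr7:99345375-99353239, minus strand), the collagen chaperone also called HSP47, had 7.90, 8.13 and 7.61 in normal mcIRBP and 7.27, 6.99 and 7.11 in normal mock arrays. Its log2 fold change was 0.75 ± 0.12 (adjusted p = 0.00416), and 1 of 3 normal mock arrays was above the floor. By the reckoning used for Serpina1e this was at least 1.51-fold. Serpina3f, a mouse relative of antichymotrypsin, had 6.50, 6.64 and 6.45 in normal mcIRBP and 5.82, 6.23 and 5.88 in normal mock arrays. Although the fit called it (log2 fold change 0.55 ± 0.11, adjusted p = 0.0175), normal mock was below the floor on all arrays and the bound gives no fold above 1, as was also so for Serpinb6b (0.52 ± 0.11, adjusted p = 0.0165). The Serpina3f call was lost under 7 alternatives, with adjusted p of 0.0501 to 0.255, among them leaving out normal mcIRBP array 2 (0.47, adjusted p = 0.0581). The Serpinb6b call was lost under 5, with adjusted p of 0.0928 to 0.234. Serpinh1 had an adjusted p of 0.155 under median scaling and 0.0996 when only the normal arrays were fitted. Stromal markers moved beside these 3. Of 8 measured in each list, 4 macrophage, 4 endothelium and 1 fibroblast markers were higher and 0 lower with mcIRBP in normal mice. The fibroblast sum ran from 1135 to 13513 across the normal mcIRBP arrays. Adipose tissue markers, 3 higher and 0 lower of 14 (median log2 fold change 0.74), and skeletal muscle markers, 0 higher and 4 lower of 15, moved too. The part of these lists was not tested.

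**Figure D2:**
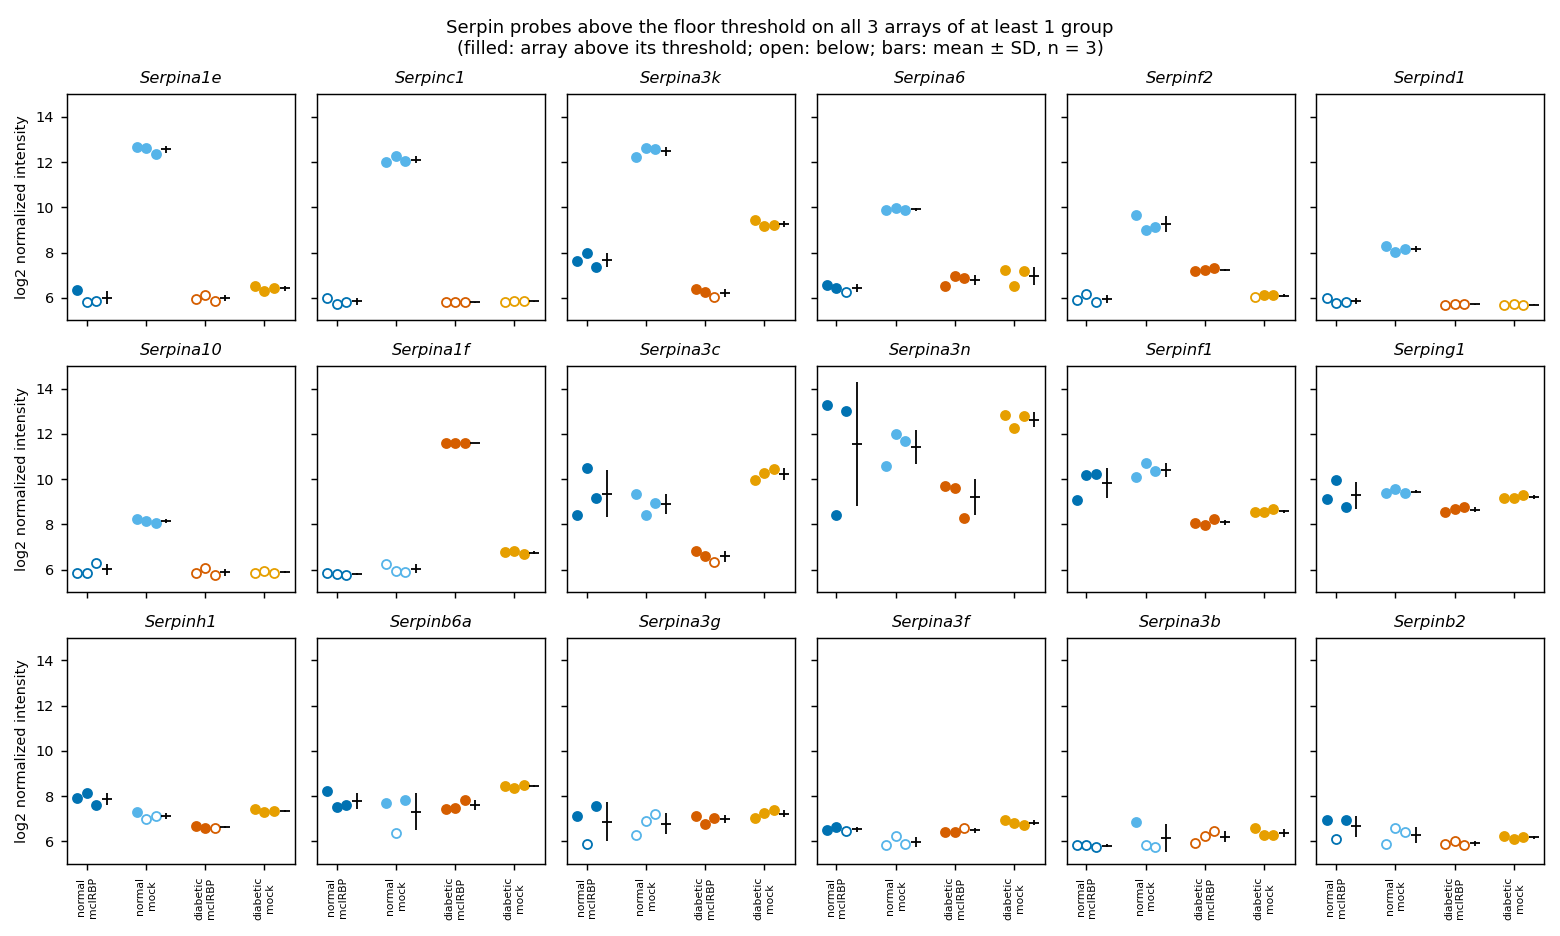
Log2 normalized intensity of the 18 Serpin probes that were above the floor on all 3 arrays of at least 1 group. Each point is an array (filled above the floor, open below), bars are the mean ± SD of 3 arrays, and the groups run from normal mcIRBP to diabetic mock. Serpina1e, Serpinc1, Serpina6, Serpinf2, Serpind1 and Serpina10 stand highest on normal mock arrays, Serpina1f on diabetic mcIRBP arrays, and Serpina3n spreads from 8.41 to 13.29 within the normal mcIRBP group.

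In diabetic mice the same comparison called 3 Serpin probes higher and 3 lower with mcIRBP, 12.2% against 6.77% of all probes (3.72% higher and 3.04% lower). The median log2 fold change was -0.01 over Serpin probes and 0.01 over all probes. Higher were Serpina1f, Serpinf2 and Serpini2, and lower were Serpina3c, Serpina3k and Serpinh1.

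Serpina1f (chr12:103688044-103695529, minus strand), also named epserin, is an alpha-1-antitrypsin relative known from mouse epididymis. Its levels were 11.61, 11.62 and 11.61 in diabetic mcIRBP and 6.76, 6.80 and 6.67 in diabetic mock arrays. On normal arrays it measured 5.85, 5.79 and 5.75 with mcIRBP and 6.26, 5.95 and 5.88 in mock. All 6 diabetic arrays and no normal array were above the floor. The log2 fold change in diabetic mice was 4.87 ± 0.09, a 29.2-fold rise (limma adjusted p = 3.90e-10). The normal mice were female, and epididymis is a male organ.

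All 16 epididymis markers were higher with mcIRBP in diabetic mice, with a median log2 fold change of 5.03. Their summed linear intensity was 95065 to 103119 on diabetic mcIRBP arrays and 2976 to 3187 on diabetic mock arrays. The 7 measured exocrine pancreas markers also rose, with sums of 8602 to 9958 on diabetic mcIRBP arrays and 817.9 to 945.5 on diabetic mock arrays. Their part in the Serpina1f result was not tested.

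Serpinf2, whose values are given above, was 1.15 ± 0.15 higher on the log2 scale with mcIRBP in diabetic mice, at least 2.20-fold with the diabetic mock array below the floor set to it (adjusted p = 0.000952), opposite in sign to its change in normal mice. In the same comparison 16 of 16 epididymis and 7 of 7 exocrine pancreas markers rose, while 0 of 16 liver markers rose and 3 fell, and their part was not tested. Serpini2, a clade I serpin described in pancreas, was called with a difference of 0.19 ± 0.05 (adjusted p = 0.0393), but it was above the floor on no array and each of the leave-one-out fits of diabetic arrays ended the call, with adjusted p of 0.0711 to 0.192.

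Serpina3c (chr12:104146907-104153929, minus strand), a secreted mouse antichymotrypsin relative, fell in diabetic mice. It had 6.82, 6.60 and 6.34 in diabetic mcIRBP and 9.95, 10.28 and 10.45 in diabetic mock arrays. Normal mice gave 8.41, 10.48 and 9.16 with mcIRBP and 9.32, 8.42 and 8.94 in mock. The diabetic groups were far apart while the normal groups overlapped. Its log2 fold change was -3.64 ± 0.44 in diabetic mice, at least 11.4-fold with the 1 diabetic mcIRBP array below the floor set to it (adjusted p = 0.000563), and 0.46 ± 0.44 in normal mice (adjusted p = 0.577).

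Serpina3k fell by 3.05 ± 0.16 on the log2 scale in diabetic mice, at least 7.06-fold on the same reckoning, with 2 of 3 diabetic mcIRBP arrays above the floor. Serpinh1 had 6.69, 6.57 and 6.61 in diabetic mcIRBP and 7.41, 7.32 and 7.34 in diabetic mock arrays. It fell by 0.73 ± 0.12 (adjusted p = 0.00361), so that its difference had opposite signs in normal and diabetic mice. With 2 of 3 diabetic mcIRBP arrays above the floor, the fall was at least 1.62-fold on the same reckoning.

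Fat, macrophage and endothelium markers moved with these falls. Of 14 adipose tissue markers, 11 were lower and 0 higher with mcIRBP in diabetic mice (median log2 fold change -2.70), and their summed intensity was 8661 to 9236 on diabetic mcIRBP arrays and 64449 to 67209 on diabetic mock arrays. Adipoq was above the floor on all arrays of both groups, and Lep on none of the diabetic mcIRBP arrays. Of 8 markers each, 5 macrophage, 4 endothelium and 1 fibroblast markers were lower and 0 higher. The fibroblast list had a median log2 fold change of -0.23 and summed to 2191 to 2712 with mcIRBP and 4893 to 6617 in mock, its member Dcn averaging 10.60 with mcIRBP and 12.03 in mock on the log2 scale. Their part in the Serpina3c, Serpina3k and Serpinh1 results was not tested.

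Serpina3n (chr12:104406646-104414334, plus strand), an acute-phase serpin that in mice inhibits granzyme B and leukocyte elastase, had an SD of 2.74 between the normal mcIRBP arrays on the log2 scale. Its levels were 13.29, 8.41 and 12.99 in normal mcIRBP and 10.56, 11.98 and 11.70 in normal mock arrays. In diabetic mice they were 9.71, 9.62 and 8.27 with mcIRBP and 12.84, 12.25 and 12.78 in mock. The diabetic groups did not overlap, yet the difference of -3.43 ± 1.09 missed the threshold (adjusted p = 0.115). It passed when only the diabetic arrays were fitted (adjusted p = 0.00585). Without normal mcIRBP array 2 the difference in diabetic mice was -3.43 with an adjusted p of 0.00116. The same array had a fibroblast marker sum of 1135, against 13513 and 11576 on the other normal mcIRBP arrays.

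Serpinf1 (chr11:75410029-75422623, minus strand) encodes pigment epithelium-derived factor, a non-inhibitory serpin that fat secretes. It had 9.06, 10.17 and 10.22 in normal mcIRBP and 10.10, 10.73 and 10.35 in normal mock arrays. The diabetic arrays had 8.07, 7.97 and 8.22 with mcIRBP and 8.53, 8.54 and 8.66 in mock. All 6 diabetic arrays lay below all 6 normal arrays, and the diabetic mcIRBP and diabetic mock groups did not overlap. Neither mcIRBP difference passed the test, with -0.58 ± 0.28 in normal mice (adjusted p = 0.263) and -0.49 ± 0.28 in diabetic mice (adjusted p = 0.513). The diabetic difference passed when only the diabetic arrays were fitted (-0.49, adjusted p = 0.0114) and with array weights (-0.57, adjusted p = 0.00371).

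Serping1 (chr2:84765360-84775444) encodes C1 inhibitor, which controls complement and plasma kallikrein, and was above the floor on all 12 arrays. It had 9.10, 9.96 and 8.77 in normal mcIRBP and 9.40, 9.55 and 9.39 in normal mock arrays, with 8.54, 8.66 and 8.76 in diabetic mcIRBP and 9.16, 9.16 and 9.31 in diabetic mock arrays. The diabetic groups did not overlap, but the difference of -0.56 ± 0.24 was not called (adjusted p = 0.286), though it was when only the diabetic arrays were fitted (adjusted p = 0.00628). In normal mice it was -0.17 ± 0.24 (adjusted p = 0.710). Without normal mcIRBP array 2 the values were -0.56 in diabetic mice (adjusted p = 0.00624) and -0.52 in normal mice (adjusted p = 0.0244), and both passed.

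Serpinb6a (chr13:33917918-34002794, minus strand), an intracellular inhibitor of granule proteases such as cathepsin G, was one of the clade B members above the floor on a full group. It had 8.20, 7.54 and 7.62 in normal mcIRBP and 7.71, 6.36 and 7.83 in normal mock arrays. Diabetic mcIRBP arrays had 7.43, 7.49 and 7.84, below the 8.45, 8.38 and 8.47 of diabetic mock arrays. The diabetic difference of -0.84 ± 0.34 was not called (adjusted p = 0.251). It passed without normal mock array 2 (-0.85, adjusted p = 0.0186) and when only the diabetic arrays were fitted (adjusted p = 0.00763). Serpinb2 (chr1:107500892-107525600, plus strand), plasminogen activator inhibitor 2, was above the floor on all arrays of the diabetic mock group only. It measured 6.94, 6.10 and 6.93 in normal mcIRBP and 5.90, 6.59 and 6.41 in normal mock arrays, and 5.89, 6.03 and 5.82 in diabetic mcIRBP and 6.24, 6.09 and 6.20 in diabetic mock arrays. No Serpinb2 difference between mcIRBP and mock was called.

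The remaining members above the floor, Serpina3g, Serpina3f and Serpina3b, stood close to it. Serpina3g (chr12:104236147-104241939, plus strand), an intracellular cathepsin inhibitor of mouse leukocytes, had 7.14, 5.90 and 7.56 in normal mcIRBP and 6.26, 6.90 and 7.19 in normal mock arrays. It had 7.13, 6.78 and 7.04 in diabetic mcIRBP and 7.04, 7.26 and 7.38 in diabetic mock arrays. These groups overlapped in both disease states and no comparison called Serpina3g. Serpina3f had 6.42, 6.41 and 6.61 in diabetic mcIRBP and 6.94, 6.81 and 6.73 in diabetic mock arrays, a difference of -0.34 ± 0.11 (adjusted p = 0.126) that passed under 6 alternatives, among them without normal mock array 2 (-0.36, adjusted p = 0.0329). Serpina3b had 5.93, 6.24 and 6.45 in diabetic mcIRBP and 6.59, 6.28 and 6.28 in diabetic mock arrays, and 5.74 to 6.85 on normal arrays. No Serpina3b comparison was called, but without normal mock array 1, the one at 6.85, diabetic mock was higher than normal mock by 0.63 (adjusted p = 0.0334). Normal mock arrays 2 and 3 were below the floor for Serpina3b. Their lowest levels above it, 7.28 and 7.31 in the main fit, exceeded the diabetic mock mean of 6.38, so no fold can be read.

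**Figure D3:**
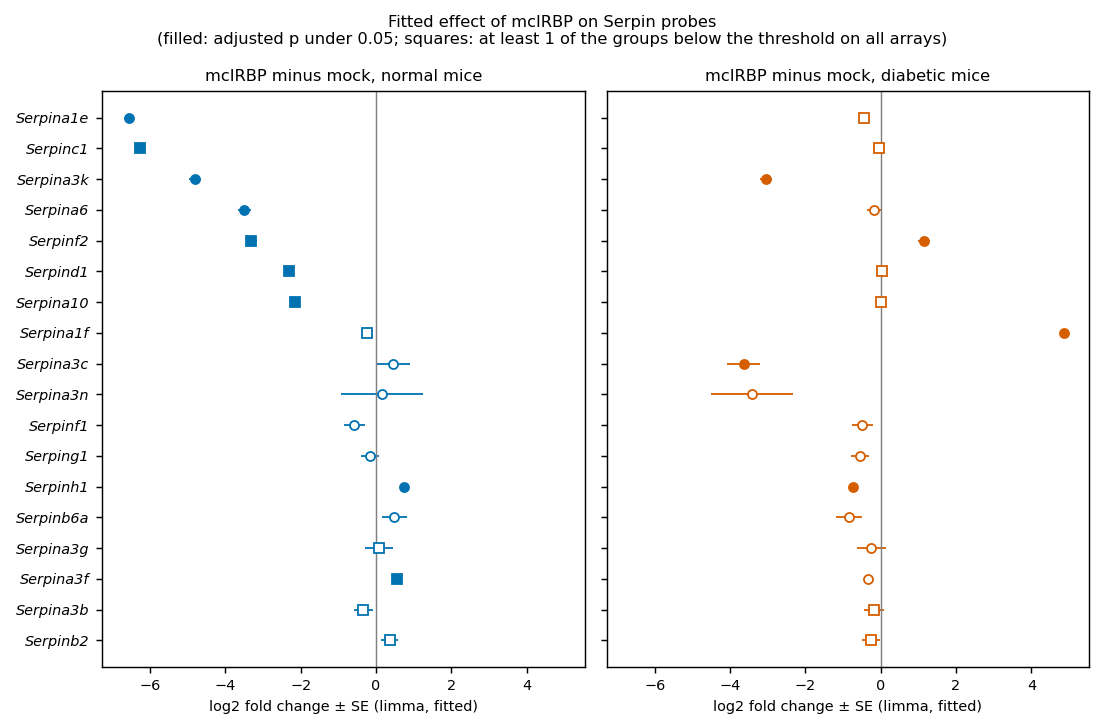
Log2 fold change of mcIRBP over mock with its SE, in normal mice (left panel) and diabetic mice (right panel), for the 18 Serpin probes above the floor on a full group. Filled symbols passed an adjusted p under 0.05 and squares mark a comparison in which at least 1 group was below the floor on all arrays. Serpina1e lies at -6.56 in normal mice and -0.44 in diabetic mice, and Serpina1f at -0.23 in normal mice and 4.87 in diabetic mice.

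Of the 22 clade B probes, 1 was higher and 0 lower with mcIRBP in normal mice, and 0 were called in diabetic mice, where 4 had an unadjusted p under 0.05. The shares were 4.55% and 0%, against 6.17% and 6.77% of all probes. Of the 22 clade B probes, 16 were above the floor on no array. Counts this small do not set the clade apart from all probes. Among the 17 clade A probes 1 was higher and 4 lower in normal mice, and 1 higher and 2 lower in diabetic mice, 29.4% and 17.6% against the same 2 shares. The probes above the floor on no array, at log2 levels of 5.67 to 6.88, were those of Serpina12 (2 probes), Serpina3a, Serpina5, Serpina7 (2 probes), Serpina9, Serpinb11, Serpinb12, Serpinb13, Serpinb1b, Serpinb1c, Serpinb3c, Serpinb3d, Serpinb5, Serpinb7, Serpinb8 (2 probes), Serpinb9b, Serpinb9c, Serpinb9d, Serpinb9e, Serpinb9g, Serpine2, Serpini1 and Serpini2. They include the fat-derived serpin vaspin (Serpina12), the protein C inhibitor (Serpina5), the thyroxine carrier (Serpina7), maspin (Serpinb5) and neuroserpin (Serpini1). Serpinb1a, Serpinb6b, Serpinb6c, Serpinb9 and the second Serpinf2 probe were above on some arrays only, with log2 levels of 5.71 to 7.29.

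Of the clade A genes with a probe, 14 lie on chromosome 12, within 797.7 kb from chr12:103616675 to 104414334, and their patterns differed along it. Genes without a probe are left out, so genes listed next to each other need not be adjacent. In order along the chromosome the 14 are Serpina10, Serpina6, Serpina1f, Serpina1e, Serpina9, Serpina12, Serpina5, Serpina3a, Serpina3b, Serpina3c, Serpina3f, Serpina3g, Serpina3k and Serpina3n. Serpina10, Serpina6 and Serpina1e were highest in normal mock arrays, whereas Serpina1f, which lies between Serpina6 and Serpina1e, was highest in diabetic mcIRBP arrays. The next 4 genes of this order, Serpina9 to Serpina3a, were above the floor on no array. Beyond them, Serpina3c and Serpina3n had their highest group mean in diabetic mock arrays (10.23 and 12.63) and Serpina3k, which lies before Serpina3n, in normal mock arrays (12.47).

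**Figure D4:**
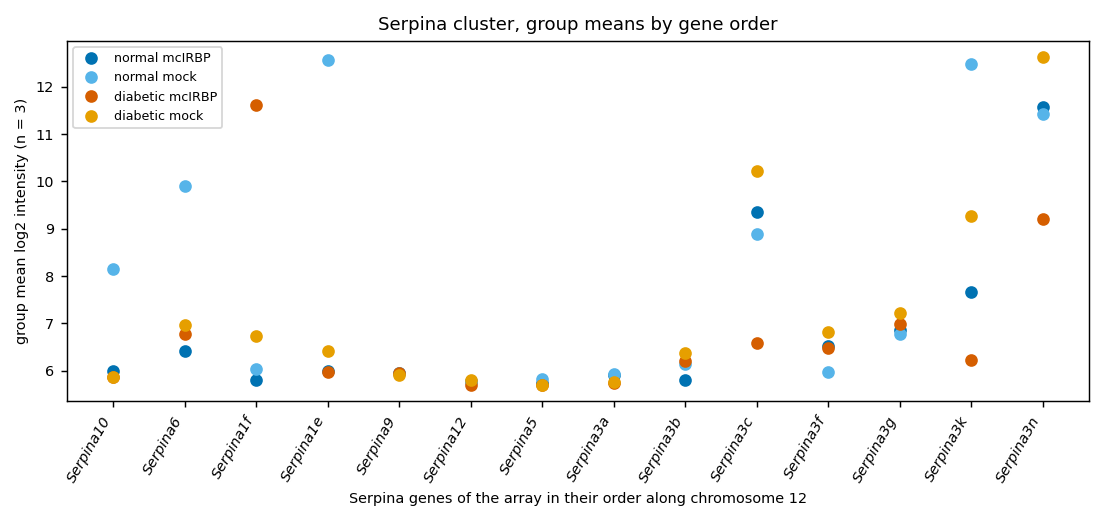
Group mean log2 normalized intensity (3 arrays) of the 14 Serpina genes of chromosome 12 in their order along the chromosome, with 1 colour per group. Serpina1f is high in diabetic mcIRBP alone (11.61) while the genes plotted on either side, Serpina6 (9.91) and Serpina1e (12.56), are high in normal mock alone. Genes without a probe are not plotted, and levels should be compared within a gene and not between genes.

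Whether mcIRBP acted differently in the 2 disease states was tested as the difference of the effects, diabetic minus normal. This called 10 Serpin probes with a positive and 3 with a negative difference, 26.5% against 9.11% of all probes (4.27% positive and 4.84% negative), with a median of 0.05 over Serpin probes and 0.03 over all probes. Positive differences were fitted for Serpinc1 (6.23 ± 0.12), Serpina1e (6.12 ± 0.20), Serpina1f (5.10 ± 0.12), both Serpinf2 probes, Serpina6 (3.31 ± 0.26), Serpind1, Serpina10, Serpina3k (1.75 ± 0.23) and Serpini2. Negative ones were those of Serpina3c (-4.09 ± 0.62), Serpinh1 (-1.49 ± 0.17) and Serpina3f (-0.89 ± 0.16). For Serpinc1, Serpind1, Serpina10 and the second Serpinf2 probe both diabetic groups were below the floor, and Serpini2 was on no array above it, so no diabetic effect could be read for these. Under median scaling the Serpina3k difference was -0.34 (adjusted p = 0.672). With levels below the floor set to it, the Serpinc1 difference was 5.71 and that of Serpini2 was 0. In the same test, 15 of 16 liver, 16 of 16 epididymis, 7 of 7 exocrine pancreas and 4 of 15 skeletal muscle markers were positive. Negative were 11 of 14 adipose tissue, 5 of 8 macrophage, 5 of 8 endothelium, 3 of 8 fibroblast and 1 of 16 liver markers. The part of these lists was not tested.

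In the mock groups, diabetic against normal, 9 Serpin probes were lower and 2 higher, 22.4% against 8.39% of all probes (3.82% lower and 4.57% higher). The median log2 fold change was -0.09 over Serpin probes and -0.02 over all probes. This comparison shares the normal mock arrays with that of mcIRBP in normal mice. Lower in diabetic mock were Serpinc1 at least 66.7-fold, Serpina1e 70.5-fold, Serpinf2 at least 8.99-fold, Serpina3k 9.18-fold, Serpina6 7.72-fold, Serpind1 at least 4.33-fold and Serpina10 at least 4.30-fold. Serpinf1 averaged 8.57 ± 0.07 in diabetic mock and 10.39 ± 0.32 in normal mock (SD, n = 3 each), a log2 fold change of -1.82 ± 0.28 (limma adjusted p = 0.00306). Under median scaling the Serpinf1 value was 0.28 (adjusted p = 0.609) and Serpina3k was no longer called (adjusted p = 0.0662). Serpina1f (0.71 ± 0.09) and Serpina3f (0.85 ± 0.11) were called higher, though normal mock was below the floor and the bound gives no fold above 1. Liver markers, 15 lower and 1 higher of 16, epididymis markers, 10 higher of 16, exocrine pancreas markers, 6 higher of 7, macrophage markers, 5 higher of 8, and skeletal muscle markers, 7 lower of 15, moved in the same comparison, and their part was not tested.

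Between the mcIRBP groups, diabetic against normal, 3 Serpin probes were higher and 5 lower, 16.3% against 11.6% of all probes (5.99% higher and 5.6% lower), with medians of -0.05 and -0.01. Serpina1f was at least 37.2-fold higher in diabetic mcIRBP and Serpinf2 at least 1.80-fold higher. Lower were Serpina3c (-2.76 ± 0.44), Serpinf1 (-1.73 ± 0.28), Serpina3k (-1.45 ± 0.16) and Serpinh1 (-1.26 ± 0.12), and each of these 4 calls was lost under median scaling, with adjusted p of 0.0584 for Serpina3c, 0.0729 for Serpinf1, 0.106 for Serpina3k and 0.115 for Serpinh1. In the same comparison 16 of 16 epididymis and 7 of 7 exocrine pancreas markers were higher. Lower were 12 of 14 adipose tissue, 6 of 8 endothelium, 5 of 8 macrophage and 4 of 8 fibroblast markers. Skeletal muscle markers were 1 higher and 5 lower of 15, and liver markers 1 higher and 3 lower of 16. The part of these lists was not tested. The calls of Serpini2 and Serpinb3c rest on probes below the floor on every array. Serpina3n, at -2.36 ± 1.09 (adjusted p = 0.220), was called without normal mcIRBP array 2 (-3.96, adjusted p = 0.000939). Raw intensity floors differed between the states, with modes of 5.26 to 5.31 (log2) on diabetic and 5.83 to 6.56 on normal arrays, so the comparisons across states carry that difference as well as sex.

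The partners of the serpins were followed through 3 lists. Of 27 measured proteases that serpins act on, 2 were higher and 10 lower with mcIRBP in normal mice, 44.4% against 6.17% of all probes, with a median log2 fold change of -0.19. For the 2 higher ones, Plau and Prtn3, normal mock was below the floor on all arrays and the bound gives no fold above 1. Prothrombin (F2) was at least 10.9-fold lower, plasminogen (Plg) at least 12.4-fold and protein C (Proc) at least 6.68-fold, so genes of both the protease and its plasma inhibitor were lower in the same arrays. In diabetic mice 3 were higher and 2 lower, 18.5% against 6.77% of all probes (median 0.01), among them the epithelial protease gene St14 at least 2.38-fold higher, tissue kallikrein (Klk1) at least 1.82-fold higher and the neutrophil protease gene Prtn3 at least 1.19-fold lower.

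Of 13 serpin cofactors, receptors and partners, 3 were higher and 1 lower with mcIRBP in normal mice, and 1 higher and 0 lower in diabetic mice. The share was 30.8% in normal mice, and in diabetic mice 7.69%, close to the 6.77% of all probes. Vitronectin (Vtn), which binds and stabilises plasminogen activator inhibitor 1, fell by 4.75 ± 0.19 on the log2 scale in normal mice, and the lipoprotein receptor gene Vldlr and tissue factor (F3) were at least 1.09-fold and 1.47-fold higher. Plaur was also called higher there, but normal mock was below the floor on all arrays and the bound gives no fold above 1. In diabetic mice the 1 called gene, Lrp2, was above the floor in neither group.

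Of 25 measured protease inhibitors outside the serpin fold, 2 were higher and 7 lower with mcIRBP in normal mice, 36% against 6.17% of all probes, with Ahsg lower by 5.95 ± 0.22 on the log2 scale, Itih3 at least 5.03-fold and Fetub at least 2.47-fold. In diabetic mice 6 were higher and 1 lower, 28% against 6.77% of all probes. There the epididymal Kunitz inhibitor gene Spint4 had a log2 fold change of 5.16 ± 0.08 and the cystatin gene Cst12 one of 5.30 ± 0.13, and the epithelial inhibitor gene Spint1 was at least 3.04-fold higher. Vtn, Ahsg and Itih3 also stand in the liver list. Spint4, Cst12 and Cst11, the last also called higher in diabetic mice, stand in the epididymis list. Col1a1 and Col3a1, counted as partners, stand in the fibroblast list, and Tfpi is counted among both the partners and the other inhibitors. Between the mock groups, diabetic against normal, 1 protease was higher and 11 lower, 1 partner higher and 1 lower, and 4 other inhibitors higher and 7 lower, which is 44.4%, 15.4% and 44% against 8.39% of all probes. Of the higher ones, only Timp1 was above the floor on a normal mock array. For Prtn3, Pdia4, Slpi, Spint4 and Cst12 the bound gives no fold above 1. Between the mcIRBP groups the counts were 2 higher and 2 lower, 1 higher and 7 lower, and 7 higher and 3 lower for the same 3 lists, which is 14.8%, 61.5% and 40% against 11.6% of all probes. Among the 7 lower partners, the bound for Col1a1 gives no fold above 1.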

How the data were processed

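Total RNA (5 ug per array, per the labels' protocols) was amplified, labelled with Cy5 and hybridised to 1-colour arrays. The authors deposited a raw intensity and a normalized intensity per probe. Background steps behind the raw intensity are not given in the sources used here, and the submitters' processing notes name limma without a version. The authors' normalized intensity had been scaled separately in normal arrays (medians 62.9 to 63.2) and diabetic arrays (40.0 to 41.0), so the raw intensity was used.

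Raw values were corrected with normexp (offset 50), quantile normalized over all 12 arrays and put on the log2 scale in limma 3.58.1 (R 4.3.3). One mean per group was fitted with lmFit and eBayes (8 residual degrees of freedom), with Benjamini-Hochberg adjustment over all 29922 probes and a threshold of 0.05. The fit was tested on simulated data. Probe genes came from the platform annotation, in which 21020 probes have 1 symbol, 0 have several and 8902 have none. Coordinates are those of the genes in RefSeq GRCm38.p6, not of the probes, whose sequences were not used here.

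The number of arrays limits the precision. Members above the floor on all 3 arrays of a group are given with all values, and other members by name and range. Of the pathway lists, up to 3 genes with the lowest p are named per comparison. Members, lists and tests were chosen with earlier results of these data known. Replicate numbers did not pair the arrays: correlations of same-numbered arrays ran from -0.34 to 0.25.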

Additional observations from a re-analysis of the deposited data

Results flagged for a closer look

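A limma test of the difference between the mcIRBP effects in diabetic and normal mice passed an adjusted p under 0.05 for 13 Serpin probes. Each value is the fitted effect in diabetic mice minus that in normal mice, on the log2 scale. Positive values were fitted for Serpinc1 (6.23), Serpina1e (6.12), Serpina1f (5.10), Serpinf2 (4.46 for the first probe and 1.28 for the second), Serpina6 (3.31), Serpind1 (2.32), Serpina10 (2.14), Serpina3k (1.75) and Serpini2 (0.33). Negative values were fitted for Serpina3c (-4.09), Serpinh1 (-1.49) and Serpina3f (-0.89). The Serpini2 probe was above the floor on no array, and for Serpinc1, Serpind1, Serpina10 and the second Serpinf2 probe both diabetic groups were below it, so for these 5 no effect in diabetic mice could be read. No effect in normal mice could be read for Serpina1f, since both normal groups were below the floor. For Serpina3f all normal mock arrays were below it, and the bound in normal mice gives no fold above 1. For Serpinh1 the 2 effects had opposite signs, 0.75 in normal and -0.73 in diabetic mice, and all 3 arrays of each mcIRBP group lay on 1 side of their mock group. Tissue marker lists moved in the same test, as given above, and their part was not tested.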

How the results depend on the processing

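Each result was recomputed under up to 22 alternatives. Of 49 probe results that passed the threshold, 37 kept their call and direction under all alternatives run. A further 10 kept their sign but lost the call under at least 1. Serpinf1 between mock groups and the Serpina3k difference of effects lost both call and sign under median scaling (limma adjusted p = 0.609 and 0.672). The falls of Serpina1e, Serpinc1, Serpina3k, Serpina6, Serpinf2, Serpind1 and Serpina10 in normal mice were among those kept. Under median scaling, Serpin calls numbered 15 in diabetic mice (main 6), 28 between mock groups (main 11), 3 between mcIRBP groups (main 8) and 20 for the difference of effects (main 13). These are calls of 49 Serpin probes. Of all 29922 probes, median scaling called 4050, 15092, 1407 and 6297 in the same order. Between mock groups it put Serping1 at 1.82 (adjusted p = 0.0233, main -0.24) and Serpinf1 at 0.28 (main -1.82), and it put the Serpina3k difference of effects at -0.34 (main 1.75). It also ended the calls of Serpina3k between mock groups and of Serpina3c, Serpina3k, Serpinf1 and Serpinh1 between mcIRBP groups. The cause was not tested. In diabetic mice, fitting only the 2 groups called 13 of 49 Serpin probes, beside 4230 of all 29922 probes. Array weights called 14 of 49, beside 6954 of 29922.

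Leaving out each array gave 11 to 13 Serpin calls in normal mice, 5 to 8 in diabetic mice, 11 to 14 between mock groups, 7 to 9 between mcIRBP groups and 13 to 15 for the difference. Over all probes the calls ran from 1406 to 2813, 1277 to 2585, 1107 to 3522, 2214 to 3881 and 1904 to 3452 in the same order. Calls gained by leaving out 1 array, beside those in the report, were Serpina1e in diabetic mice (-0.44 without normal mcIRBP array 1), Serpina3c between mock groups (1.34 and 1.35 without normal mcIRBP array 1 or 2), Serpinb6a between mock groups (1.42 without normal mock array 3), Serping1 (-0.88 without normal mcIRBP array 3) and Serpinb2 (-0.77 without normal mock array 1, -0.98 without normal mcIRBP array 2) between mcIRBP groups, and Serpinb2 (-0.87) and Serpina3n (-5.17) for the difference without normal mcIRBP array 2. Serpinb3c, below the floor on every array, was called or lost under several. With replicate number as a block, Serpin calls were 3 higher and 8 lower in normal mice, 2 and 3 in diabetic mice, 2 and 9 between mock groups, 3 and 4 between mcIRBP groups and 10 and 3 for the difference. Over all probes they were 766 and 697, 948 and 801, 963 and 881, 1507 and 1447, and 1152 and 1221 in the same order.

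Over all probes, calls higher and lower under median scaling were 31 and 261 in normal mice (main 1034 and 811), 783 and 3267 in diabetic mice (1114 and 911), 10073 and 5019 between mock groups (1367 and 1143), 1116 and 291 between mcIRBP groups (1793 and 1676) and 1403 and 4894 for the difference (1277 and 1448). Counts of all calls ran from 292 to 2813 in normal mice, 1277 to 6954 in diabetic mice, 1107 to 15092 between mock groups, 1407 to 3881 between mcIRBP groups and 1904 to 6297 for the difference. Quantile normalization within each disease state gave 481 higher and 572 lower in normal mice. Levels below the floor have no order, which limits every reading of the 26 probes above it on no array.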
